A study of Rattus norvegicus with 10 samples.

Results

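Macrophages in the heart were followed through 10 marker genes, Tyrobp, Fcer1g, Cd68, Csf1r, Aif1, Cd14, Cd163, Mrc1, Lyve1 and Folr2, out of 14217 named genes measured. They were taken as every probe set whose only gene symbol in the platform annotation was one of these names, which gave 12 probe sets, and none was removed by a filter. The first 6 are general markers of myeloid cells, and Cd163, Mrc1, Lyve1 and Folr2 are markers associated with macrophages that reside in tissue. The hearts came from inbred male Fischer-344 rats of 2 ages: Old, 24 months (5 arrays), and Young, 6 months (5 arrays). All rats received standard chow, no treatment other than age is given, and RNA was hybridised to Affymetrix rat expression arrays after 2 rounds of cDNA synthesis. The sample protocols name the whole heart and the series text the ventricles, and no label ties each array to its own animal, so the p-values reflect only how far these samples spread, which may be technical. Cells were not sorted, so every value is a sum over all cells of the tissue, and more macrophages cannot be told apart from more RNA per macrophage.

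Macrophages engulf dead cells and debris, present antigen and, in the heart, also take part in vessel and matrix upkeep. Some cardiac macrophages settle before birth and renew locally, and others derive from blood monocytes that enter the tissue. In mouse hearts, Lyve1, Folr2, Mrc1 and Cd163 are typical of the locally renewing cells, while receptor adaptors and lysosomal proteins such as those of Tyrobp, Fcer1g and Cd68 are shared by monocytes and macrophages of either origin.

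The deposited values are centred: 0 is the median of the 10 arrays for each probe set, so they show differences between arrays and carry no level, and genes cannot be ranked by abundance. The spacing of the stored numbers, which is finer for dim probe sets, leaves a trace of the level. By it, 0 of the 12 probe sets fell in the dimmest class (log2 2 to 4), 11 lay in the class of 4 to 8 and 1, that of Fcer1g, in the class of 8 or more. All 7 measured cardiomyocyte markers, which define the labelled tissue, had a probe set in that brightest class, against 19.9% of all genes. The classes are approximate, and served only for a filter that left out the dimmest class as an alternative.

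Upstream sequence was available for 7 of the 10 genes, and 3 are shown to let the letters before the start of Cd68, Cd163 and Mrc1 be compared: the smallest p of the general and of the resident-type genes with a sequence, and the largest difference. Each run is the 250 bases before the RefSeq gene start (build GRCr8, gene strand, 5′ to 3′). Capitals mark GAGGAA on either strand, a core sequence recognised by the myeloid transcription factor PU.1, so that TTCCTC is the same site read on the other strand. The Cd68 run lies at chr10:54882442-54882691 (minus strand), that of Cd163 at chr4:158770524-158770773 (plus strand) and that of Mrc1 at chr17:82157475-82157724 (plus strand).
Cd68: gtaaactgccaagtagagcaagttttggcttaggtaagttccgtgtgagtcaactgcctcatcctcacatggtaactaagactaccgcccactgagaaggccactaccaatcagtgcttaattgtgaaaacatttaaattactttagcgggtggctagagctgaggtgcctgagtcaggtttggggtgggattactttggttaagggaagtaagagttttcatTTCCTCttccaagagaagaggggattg
Cd163: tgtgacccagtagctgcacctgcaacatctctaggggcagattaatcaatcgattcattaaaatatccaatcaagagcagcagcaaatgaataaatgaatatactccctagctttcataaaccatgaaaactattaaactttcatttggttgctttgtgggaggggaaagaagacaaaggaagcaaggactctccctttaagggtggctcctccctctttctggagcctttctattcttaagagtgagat
Mrc1: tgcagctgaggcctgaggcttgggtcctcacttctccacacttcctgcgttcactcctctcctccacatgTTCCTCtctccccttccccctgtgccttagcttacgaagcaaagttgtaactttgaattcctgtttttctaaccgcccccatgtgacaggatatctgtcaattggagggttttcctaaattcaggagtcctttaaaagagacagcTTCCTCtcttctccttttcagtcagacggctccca
The Cd68 run holds GAGGAA once, that of Mrc1 at 2 places and that of Cd163 at none. Over the 7 genes, GAGGAA was found in 4 (Cd68, Csf1r, Cd14 and Mrc1), against 23.3% of 33469 runs of the same length. The motif TTGCNNAA, a form of the site bound by C/EBP factors, was found on either strand in 0 of the 7, against 9.22% of all runs. A match describes these letters and is not evidence of binding.

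All 10 marker genes had a higher mean in Old than in Young hearts, and 6 of them rose by the test used throughout (limma, Benjamini-Hochberg adjusted p under 0.05 over all 14217 genes). These were Tyrobp, Fcer1g, Aif1, Cd163, Mrc1 and Folr2, against 6.77% of all genes that rose and 48.2% that had a higher mean. The median difference, Old minus Young, was 0.57 on the log2 scale over the 10 genes and -0.01 over all genes. The test counted 3 of the 6 general and 3 of the 4 resident-type genes. In 5 genes every Old array lay above every Young array, which was so in 5.13% of all genes. Single arrays and settings moved the count of 6: it was 4 without Old replicate 5, Old replicate 6 or Young replicate 2, 3 without Young replicate 3, and 10 with array weights. Values below are log2 values, listed for Old replicates 2, 3, 4, 5 and 6 and for Young replicates 1, 2, 3, 4 and 6, in that order.

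**Figure D1:**
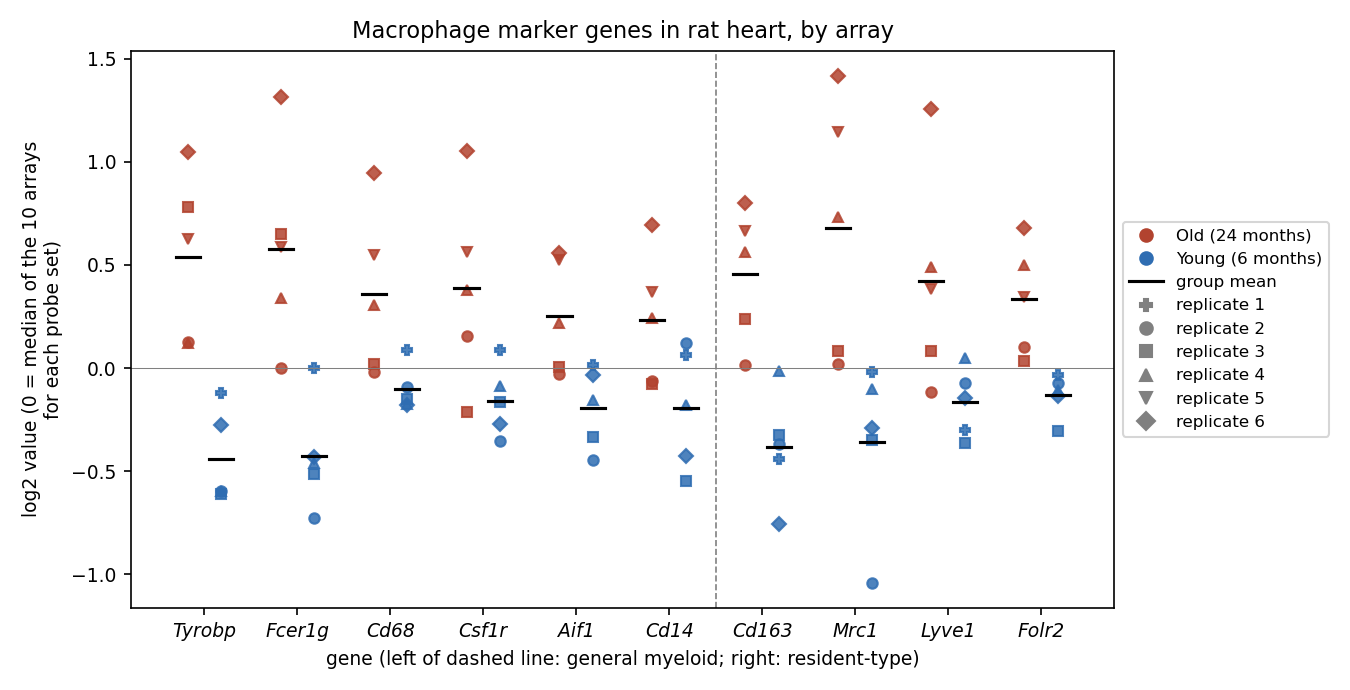
Log2 value of each marker gene (vertical axis, 0 = median of the 10 arrays per probe set) on each array, Old left of Young for each gene; marker shapes give the replicate number and black lines the mean of 5 arrays. Old replicate 6 is the highest Old array for all 10 genes, and the ages do not overlap in Tyrobp, Fcer1g, Cd163, Mrc1 and Folr2.

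The adaptors that link immune receptors to kinases had the smallest p of the general genes. Tyrobp encodes a transmembrane adaptor with an ITAM, the tyrosine motif through which receptors such as those of the Trem family signal. Its values were 0.13, 0.78, 0.12, 0.63 and 1.05 in Old hearts, against -0.12, -0.60, -0.61, -0.60 and -0.27 in Young hearts. The ages did not overlap, Old replicates 2 and 4 lay lowest among the Old and Young replicate 1 lay highest among the Young. Tyrobp rose 1.97-fold (log2 difference 0.98 ± 0.17 SE, limma adjusted p = 0.00496). Fcer1g encodes the gamma chain shared by Fc receptors for IgE and IgG, a related ITAM adaptor. It had 0.00137, 0.65, 0.34, 0.59 and 1.31 in Old hearts, against -0.00137, -0.73, -0.52, -0.46 and -0.43 in Young hearts. Old replicate 2 and Young replicate 1 almost met, with a gap of 0.00273, and the other arrays of each age stood well apart. Fcer1g rose 2.01-fold (1.01 ± 0.20 SE, adjusted p = 0.00842). Both calls held without any 1 array and in every other setting run, with adjusted p from 0.00117 to 0.0169 for Tyrobp and from 0.00180 to 0.0265 for Fcer1g.

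Csf1r and Cd14, the surface receptors among the general genes, had higher means in Old hearts but did not pass the test. Csf1r encodes the receptor for the growth factors CSF1 and IL-34, on which most macrophages depend for survival. It had 0.16, -0.21, 0.38, 0.56 and 1.05 in Old hearts, against 0.09, -0.35, -0.17, -0.09 and -0.27 in Young hearts. Old replicate 3 lay below 3 of the 5 Young arrays, and Old replicate 6 was highest. The difference was 0.55 ± 0.18 SE (limma adjusted p = 0.0756), and it passed without Old replicate 3 (0.0137), after quantile normalization (0.0382) and under array weights (0.0155). Cd14 encodes the co-receptor that hands lipopolysaccharide to the toll-like receptor TLR4. Its values were -0.06, -0.08, 0.24, 0.37 and 0.69 in Old hearts, against 0.06, 0.12, -0.55, -0.18 and -0.43 in Young hearts. Here the ages overlapped widely, with Young replicates 1 and 2 above Old replicates 2 and 3. The difference was 0.43 ± 0.16 SE (adjusted p = 0.107), the largest p of the 10 genes, and array weights alone brought it under the threshold (0.0307).

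Cd68 encodes a glycoprotein of the lysosomal membrane, and Aif1 a calcium-binding protein of the macrophage actin skeleton. Cd68 had -0.02, 0.02, 0.31, 0.55 and 0.95 in Old hearts, against 0.09, -0.09, -0.15, -0.17 and -0.18 in Young hearts. Only Young replicate 1 reached into the Old range, above Old replicates 2 and 3. With a difference of 0.46 ± 0.15 SE (limma adjusted p = 0.0732) Cd68 did not pass, though it did without Old replicate 2 (0.0293) or 3 (0.0371), after quantile normalization (0.0391) and under array weights (0.0206).

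Aif1 rested on 2 probe sets that disagreed. Probe set 1368558_s_at gave 0.05, -0.05, 0.40, 0.95 and 1.13 in Old hearts, against 0.10, -0.87, -0.68, -0.30 and -0.23 in Young hearts. It rose by 0.89 ± 0.23 SE (adjusted p over all 31042 probe sets 0.0323, where 4.42% rose), with Young replicate 1 above Old replicates 2 and 3. Probe set 1369489_at stayed between -0.11 and 0.09 in Old hearts and between -0.08 and 0.17 in Young hearts, and differed by -0.000655 ± 0.060 SE (adjusted p = 0.997). As their mean, Aif1 rose 1.36-fold (0.45 ± 0.13 SE, adjusted p = 0.0412 over genes). That call was the least stable of the 6. It was lost without Old replicate 4 (0.0628), 5 (0.101) or 6 (0.0951), without Young replicate 2 (0.101), 3 (0.101) or 4 (0.0681), and without both Old replicates 3 and 6 (0.0752).

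Among the resident-type genes, Cd163 had the smallest p. Cd163 encodes the scavenger receptor that takes up haemoglobin bound to haptoglobin. Its values were 0.01, 0.24, 0.56, 0.66 and 0.80 in Old hearts, against -0.44, -0.37, -0.33, -0.01 and -0.76 in Young hearts. The ages did not overlap, with Old replicate 2 and Young replicate 4 next to each other. Cd163 rose 1.79-fold (0.84 ± 0.15 SE, limma adjusted p = 0.00589), and the call held without any 1 array and in every other setting (adjusted p from 0.00137 to 0.0381). Mrc1 encodes the mannose receptor CD206, an endocytic receptor for glycoproteins. It had 0.02, 0.08, 0.73, 1.14 and 1.42 in Old hearts, against -0.02, -1.04, -0.35, -0.10 and -0.29 in Young hearts. Old replicates 4, 5 and 6 stood far above all Young arrays, Old replicates 2 and 3 only just above them, and Young replicate 2 lay far below the rest. Mrc1 rose 2.05-fold, the largest difference of the 10 genes (1.04 ± 0.27 SE, adjusted p = 0.0270). The call was lost without Old replicate 5 (0.0718) or 6 (0.0573), without Young replicate 2 (0.0652) or 3 (0.0612), and with robust shrinkage of the variances (0.0509).

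Folr2 encodes the beta folate receptor of macrophages. Its values were 0.10, 0.03, 0.50, 0.35 and 0.68 in Old hearts, against -0.03, -0.07, -0.31, -0.11 and -0.14 in Young hearts. The ages did not overlap and the Young arrays lay close together. Folr2 rose 1.38-fold (0.46 ± 0.11 SE, limma adjusted p = 0.0187), a smaller difference than that of Lyve1 with a smaller error, and the call was lost without Young replicate 3 (0.0542). Lyve1 encodes a hyaluronan receptor found on a class of vessel-associated macrophages and on lymphatic endothelium. As the mean of 2 probe sets it had -0.12, 0.08, 0.49, 0.38 and 1.25 in Old hearts, against -0.30, -0.07, -0.36, 0.05 and -0.14 in Young hearts. Old replicate 6 stood far above every other array and Old replicate 2 lay within the Young range. The 2 probe sets agreed, with differences of 0.59 ± 0.21 SE (1382192_at) and 0.59 ± 0.19 SE (1382732_at). The gene did not pass (0.59 ± 0.20 SE, adjusted p = 0.0808). It passed without Old replicate 2 (0.0272), after quantile normalization (0.0414) and under array weights (0.0269).

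**Figure D2:**
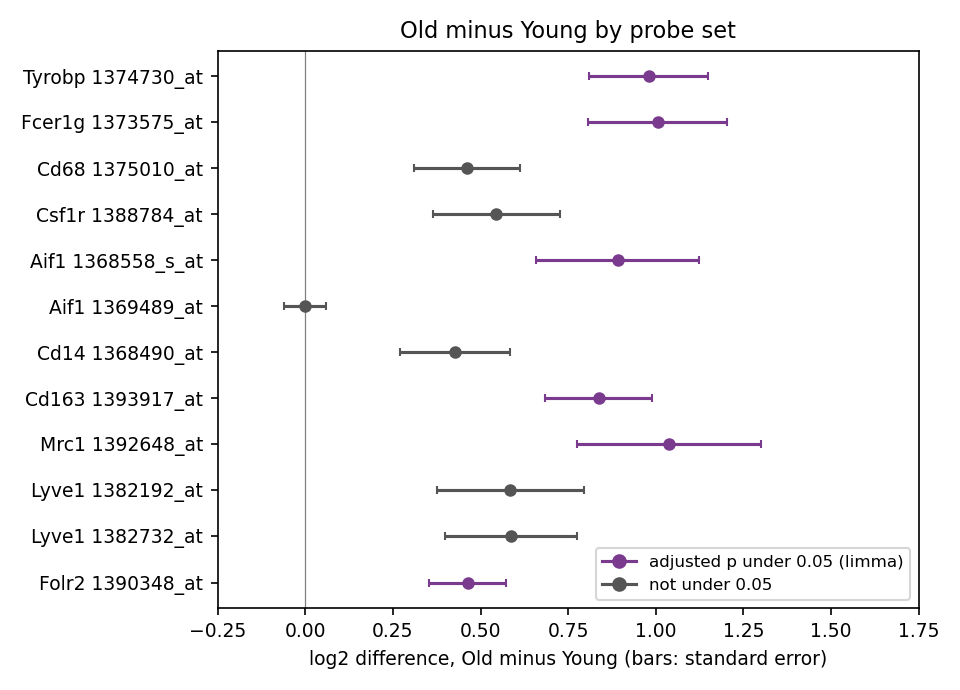
Log2 difference, Old minus Young, with its standard error (horizontal axis) for each of the 12 probe sets; purple points have an adjusted p under 0.05 over all 31042 probe sets. The 2 probe sets of Lyve1 coincide, while those of Aif1 lie at 0.89 and -0.000655.

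The resident-type and general genes were then compared within each array. The score of a set is the mean of its genes, each centred on its own mean over the 10 arrays. The general score was -0.04, 0.12, 0.20, 0.47 and 0.87 in Old hearts, against -0.05, -0.42, -0.46, -0.35 and -0.34 in Young hearts. The resident-type score was -0.10, 0.00314, 0.46, 0.53 and 0.93 in Old hearts, against -0.30, -0.49, -0.44, -0.15 and -0.44 in Young hearts. Both put Old replicate 6 highest, then Old replicates 5 and 4, with Old replicate 2 lowest among the Old. The order of the Young arrays differed: Young replicate 1 led the general score and Young replicate 4 the resident-type score. Resident-type minus general score was -0.06, -0.12, 0.27, 0.06 and 0.07 in Old hearts, against -0.26, -0.07, 0.01, 0.20 and -0.10 in Young hearts. It averaged 0.04 ± 0.15 in Old and -0.04 ± 0.17 in Young hearts (SD, n = 5 each), and the ages overlapped. The difference between the ages, 0.0874, was smaller than the SD of either age. It was 0.0131 without the flat Aif1 probe set, an alternative chosen after its values were seen, and 0.1358 without Lyve1. Leaving out 1 array gave 0.0313 (without Old replicate 4) to 0.1475 (without Young replicate 4). No p is given for these scores, since the genes were chosen with earlier results of these data known.

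**Figure D3:**
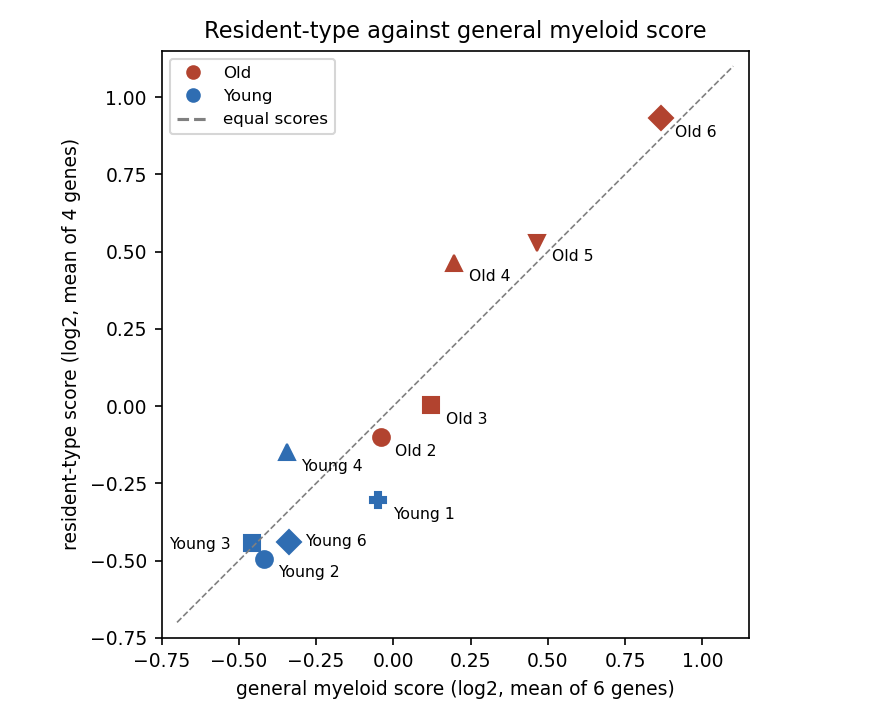
Resident-type score (vertical axis, mean of 4 genes) against general myeloid score (horizontal axis, mean of 6 genes), both log2, 1 point per array; the dashed line marks equal scores. The Old arrays spread along the line as far as 0.87 and 0.93 (replicate 6), and Old replicate 4 lies farthest above it, by 0.27.

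The range over the Old arrays was wider than over the Young in 10 of the 10 marker genes, against 55.3% of all genes. Without Old replicate 6, an alternative chosen after the values were seen, this was so in 7 of the 10, against 46.6% of all genes, with Fcer1g, Cd14 and Cd163 the exceptions. The spread itself was not tested. Old replicate 6 was the highest Old array for 10 of 10 marker genes (20.1% of all genes), and Old replicate 2 the lowest for 6 (21.3% of all genes). Young replicate 1 was the highest Young array for 7 (22.6% of all genes). In the general score, Old replicate 2 (-0.04) and Young replicate 1 (-0.05) lay next to each other, although the labels give them different ages.

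By root-mean-square difference over the 10 arrays, the genes outside the set nearest to the general score were Cd300c2 (0.072), Lgals3 (0.076) and Cxcl16 (0.079), in log2 units. Each was nearer to that score than any of its own 6 genes, the nearest of which was Cd68 at 0.12. These 3 were the closest in a search over all other genes, so their nearness follows in part from the choice. Lgals3 encodes the beta-galactoside lectin galectin-3 and Cxcl16 a membrane-bound chemokine. Nearest to the resident-type score were Ctss (0.11), which encodes the lysosomal protease cathepsin S, Gda (0.11), which encodes guanine deaminase, and Fcrl2 (0.12). Cd163, at 0.16, was the nearest of the 4 genes of that score. This measure takes in the difference between the ages, so that these 6 neighbours also differ by age is part of how they were chosen and no support for the marker genes (limma adjusted p from 0.00341 to 0.0352). The call of Cd300c2 was lost without Old replicate 5 or Young replicate 2, 3, 4 or 6 (0.0638 to 0.0900). That of Fcrl2 was lost without any 1 array other than Old replicates 2 and 3 and Young replicate 1 (0.0523 to 0.0757), and that of Ctss without Old replicate 5 or Young replicate 2 or 3 (0.0518 to 0.0547).

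The partners of the members were followed in further lists, read against the 6.77% of all genes that rose. Of 11 measured genes of receptors, kinases and other enzymes of ITAM signalling, 4 rose and 0 fell, with a median difference of 0.27. They were the beta-glucan receptor gene Clec7a (0.56 ± 0.14 SE, limma adjusted p = 0.0212), the Fc receptor genes Fcgr1a (0.65, 0.0222) and Fcgr3a (0.41, 0.0310) and the inositol phosphatase gene Inpp5d (0.32, 0.0411). Trem2, a receptor that signals through the Tyrobp adaptor, gave -0.02 ± 0.04 SE (adjusted p = 0.796). These calls were sensitive to single arrays. Clec7a was lost without Young replicate 2 or 3 (0.0558 to 0.0562) and Fcgr1a without Old replicate 5 or Young replicate 2, 3 or 4 (0.0513 to 0.0610). Fcgr3a (0.0537 to 0.0730) and Inpp5d (0.0571 to 0.0997) were lost without any 1 array other than Old replicates 2 and 4.

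Around Csf1r, the list of myeloid growth factors, receptors and transcription factors had 3 of 10 genes that rose and 0 that fell (median 0.17). Il34, which encodes a ligand of the Csf1r receptor, rose by 0.48 ± 0.11 SE (limma adjusted p = 0.0139), while the other ligand gene Csf1 gave 0.04 ± 0.04 SE (0.603). Csf2ra, of the receptor for GM-CSF, rose by 0.36 (0.0140) and the transcription factor gene Maf by 0.29 (0.0449). Maf was lost without any 1 array other than Old replicates 2 and 3 and Young replicate 4 (0.0799 to 0.109).

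Around Cd14, 4 of 10 genes of toll-like receptors and lipopolysaccharide recognition rose and 0 fell (median 0.32). Ly96, which encodes MD-2, the partner of TLR4 in binding lipopolysaccharide, rose by 0.61 ± 0.11 SE (limma adjusted p = 0.00509). Lbp, the lipopolysaccharide-binding protein that loads CD14, rose by 0.76 (0.0161), Tlr2 by 0.35 (0.0127) and the adaptor gene Myd88 by 0.40 (0.0191). Tlr4 itself gave 0.29 ± 0.11 SE (0.110) and passed without Old replicate 3 (0.0407) and under array weights (0.0473). Myd88 was lost without Old replicate 5 (0.0531) or Young replicate 3 (0.0513).

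Around Cd163, genes of haemoglobin clearance and iron handling moved in both directions, with 3 of 8 that rose and 1 that fell (median 0.06), where 5.09% of all genes fell. Hmox1, the haem oxygenase that opens the haem ring, rose 1.80-fold (0.85 ± 0.21 SE, limma adjusted p = 0.0231), Lrp1, a receptor for haem bound to haemopexin, by 0.34 (0.0125) and the iron exporter gene Slc40a1 by 0.29 (0.0249). The transferrin receptor gene Tfrc fell by 0.81 (SE 0.09, adjusted p = 0.000882), with every Old array below every Young array. Haptoglobin (Hp) gave 0.02 ± 0.08 SE (0.918). Hmox1 was lost without Old replicate 6 or Young replicate 2 or 4 (0.0505 to 0.0617), and Slc40a1 without Old replicate 5 or 6 or Young replicate 2 or 4 (0.0530 to 0.0662).

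Of 11 other genes of tissue-resident macrophages, 4 rose and 0 fell (median 0.45). Stab1, which encodes the scavenger receptor stabilin-1, rose 2.11-fold (1.08 ± 0.16 SE, limma adjusted p = 0.00210), the chemokine gene Pf4 1.87-fold (0.90 ± 0.10 SE, 0.000858), and the complement gene C1qa 1.82-fold (0.86 ± 0.18 SE, 0.00998). F13a1, the A chain of coagulation factor XIII, rose by 0.52 (0.0346), and was lost without any 1 array other than Old replicates 2 and 3 and Young replicate 1 (0.0511 to 0.0877). Cx3cr1, the fractalkine receptor gene, gave -0.07 ± 0.07 SE (0.562).

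Of 16 genes of monocyte recruitment and inflammatory macrophages, 4 rose and 0 fell (median 0.28). Lgals3 rose by 0.69 ± 0.14 SE (limma adjusted p = 0.00776), the proteoglycan gene Vcan by 0.36 (0.0271), the calgranulin gene S100a9 by 1.08 (0.0271) and the lysozyme gene Lyz2 by 0.83 (0.0356). Ccr2, the receptor through which classical monocytes are drawn into tissue, gave 0.00312 ± 0.08 SE (0.987), and the gene of its ligand Ccl2 0.76 ± 0.25 SE (0.0685). Ccl2 passed without Old replicate 2 (0.0470) or Young replicate 1 (0.00342) and under array weights (0.0460). The cytokine genes Il1b (0.04, 0.762), Tnf (0.06, 0.559) and Il6 (0.04, 0.680) did not pass either. S100a9 was lost without any 1 Young array other than Young replicate 1 (0.0535 to 0.0652), Vcan without Old replicate 5 or Young replicate 1, 2 or 3 (0.0508 to 0.0707), and Lyz2 without any 1 array other than Old replicates 2 and 3 and Young replicate 1 (0.0600 to 0.0917). A difference in response between this list and the resident list was not tested.

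Pan-leukocyte and antigen presentation genes had 4 of 14 that rose and 0 that fell (median 0.57). They were Laptm5 (0.76 ± 0.16 SE, limma adjusted p = 0.0125), Ctss (0.74, 0.0198), the actin-bundling gene Lcp1 (0.74, 0.0202) and Ptprc, which encodes the leukocyte antigen CD45 (0.50, 0.0315). The class II genes Cd74 (-0.02, 0.934), RT1-Ba (0.07, 0.545) and RT1-Da (0.23, 0.571) did not pass. Ptprc was lost without Old replicate 5 or Young replicate 2, 3 or 6 (0.0614 to 0.0805), Ctss without Old replicate 5 or Young replicate 2 or 3 (0.0518 to 0.0547) and Lcp1 without Young replicate 2 (0.05002).

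Markers of other cell types moved with age over the same arrays, and their part in the macrophage results was not tested. T and NK cell markers had 3 of 14 genes that rose, Gzma (1.98), Klrd1 (0.96) and Gzmb (1.46), while 11 did not pass and 12 had a higher mean in Old hearts. Among those that did not pass, Cd3e (0.02) and the NK receptor gene Ncr1 (0.02) hardly differed. Cd3d (-0.12) and Cd2 (-0.10) had a lower mean, and Prf1 (1.40) and Nkg7 (1.11) a much higher one. The T and NK score was -0.08 to 0.90 in Old hearts, against -0.50 to -0.12 in Young hearts. That score was highest in Old replicate 3 (0.90), and next highest in Old replicate 6 (0.64). In Old replicate 3 the marker genes did not move as one: Tyrobp (0.78) and Fcer1g (0.65) were each second highest of the 10 arrays, while Csf1r (-0.21) was eighth. NK cells also use the adaptors of Tyrobp and Fcer1g, and a part of NK cells in these values was not tested. Old replicate 6 was the highest Old array for all 10 marker genes, so leaving out both arrays does not single out T or NK cells. Without both Old replicates 3 and 6, Tyrobp, Fcer1g, Cd163, Mrc1 and Folr2 kept their calls (limma adjusted p from 0.0135 to 0.0399), Csf1r gained one (0.0167) and Aif1 lost it (0.0752). Lost as well were Inpp5d (0.158), Myd88 (0.0940), Atp2a2 (0.0940), Hmox1 (0.0907), Klrd1 (0.0869), Lcp1 (0.0763), Fcgr3a (0.0757), Slc40a1 (0.0708), Ptprc (0.0687), Gzmb (0.0609), Tlr2 (0.0603), Vcan (0.0581) and Il34 (0.0558). Fibroblast markers had 5 of 9 genes that rose, Dpt (0.70), Fbln1 (0.53), Lum (0.68), Dcn (0.31) and Pdgfra (0.60), and a score of -0.10 to 0.40 in Old hearts, against -0.31 to -0.03 in Young hearts. Cardiomyocyte markers had 3 of 7 that fell, Myh6 (-1.24), Ryr2 (-0.55) and Atp2a2 (-0.34), and a score of -0.31 to -0.01 in Old hearts, against 0.10 to 0.28 in Young hearts. Of neutrophil markers, S100a9 alone of 5 rose, and 3 of the 5 had a higher mean in Old hearts. Camp (-0.04) and Cxcr2 (-0.04) had a lower one. The neutrophil score was -0.00083 to 0.53 in Old hearts, against -0.20 to -0.04 in Young hearts. Of dendritic cell markers, Itgax (0.69) alone of 4 rose. Clec9a (0.08) and Flt3 (0.01) did not pass, nor did Cd1d1, at -0.24 ± 0.08 SE (limma adjusted p = 0.0750). The dendritic cell score was -0.12 to 0.22 in Old hearts, against -0.14 to 0.07 in Young hearts. Blood endothelial markers had 2 of 7 that rose, Tek (0.35) and Vwf (0.94), and 4 of the 7 had a higher mean in Old hearts. Kdr (-0.03), Tie1 (-0.02) and Egfl7 (-0.00671) had a slightly lower one. The blood endothelial score was -0.07 to 0.23 in Old hearts, against -0.17 to -0.00234 in Young hearts. Mast cell markers, which bear on Fcer1g, had 0 of 7 past the test in limma (-0.10 to 0.14 in Old hearts, against -0.14 to 0.08 in Young hearts). The 2 with the smallest p were Fcer1a (0.16, adjusted p = 0.102) and Cma1 (0.27, 0.109), which passed without Old replicate 2 (0.0499 and 0.0292). B cell markers had 0 of 4 in limma (-0.10 to 0.02 in Old hearts, against -0.02 to 0.12 in Young hearts). The smallest p among them was that of Ms4a1 (-0.24, adjusted p = 0.0681), which passed without Old replicate 3 (0.0322) and under array weights (0.0255). Lymphatic endothelial markers, which bear on Lyve1, had 1 of 6 that rose, Pdpn (0.36 ± 0.08 SE, adjusted p = 0.0117), and 4 of the 6 had a higher mean in Old hearts. Mmrn1 gave 0.23 ± 0.09 SE (0.114). Prox1, the defining transcription factor of that cell type, gave -0.18 ± 0.06 SE (0.0801, or 0.0304 without Old replicate 2). The lymphatic score was 0.00422 in Old replicate 6, where Lyve1 was highest, within a range of -0.02 to 0.15 in Old hearts, against -0.10 to 0.00183 in Young hearts. A part of lymphatic cells in the Lyve1 values was not tested. Single arrays changed these calls. Gzma was lost without Young replicate 2 or 3 (0.0523 to 0.0545), Klrd1 without Old replicate 6 or Young replicate 2, 3 or 4 (0.0573 to 0.0795), and Gzmb without Old replicate 3 or 6 or any 1 Young array (0.0508 to 0.102). Dcn was lost without Old replicate 5 or 6 or Young replicate 3 (0.0597 to 0.0645), Atp2a2 without Old replicate 5 or 6 or Young replicate 2 or 3 (0.0570 to 0.0674), and Pdgfra without Old replicate 5 or 6 or Young replicate 2, 3 or 6 (0.0538 to 0.0638). S100a9 was lost without any 1 Young array other than Young replicate 1 (0.0535 to 0.0652). Itgax was lost without any 1 array other than Old replicates 3 and 6 and Young replicate 1 (0.0505 to 0.111), and Vwf without Young replicate 3 (0.0616). Robust shrinkage lost Gzmb (0.0869), Itgax (0.0611), Lyz2 (0.0583), Klrd1 (0.0541) and S100a9 (0.0525), array weights Gzmb (0.0569), and the median of the probe sets Vcan (0.122) and Atp2a2 (0.0539). The most variable probe set of a gene was picked over all 10 arrays, age difference included, which favours larger differences. Taking it in place of the mean gave larger log2 differences for Aif1 (0.89), Maf (0.73), Lrp1 (0.65), Slc40a1 (0.50), F13a1 (0.79), Vcan (1.13), Ptprc (1.05), Fbln1 (0.81), Tfrc (-1.26), Myh6 (-2.02) and Atp2a2 (-0.98), and leaving out the dimmest class gave 0.60 for Vcan. Without both Old replicates 3 and 6, smaller ones were found for Fcgr3a (0.22), Hmox1 (0.52), Laptm5 (0.48), Gzma (1.31), Klrd1 (0.52), Gzmb (0.66) and Vwf (0.51).

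**Figure D4:**
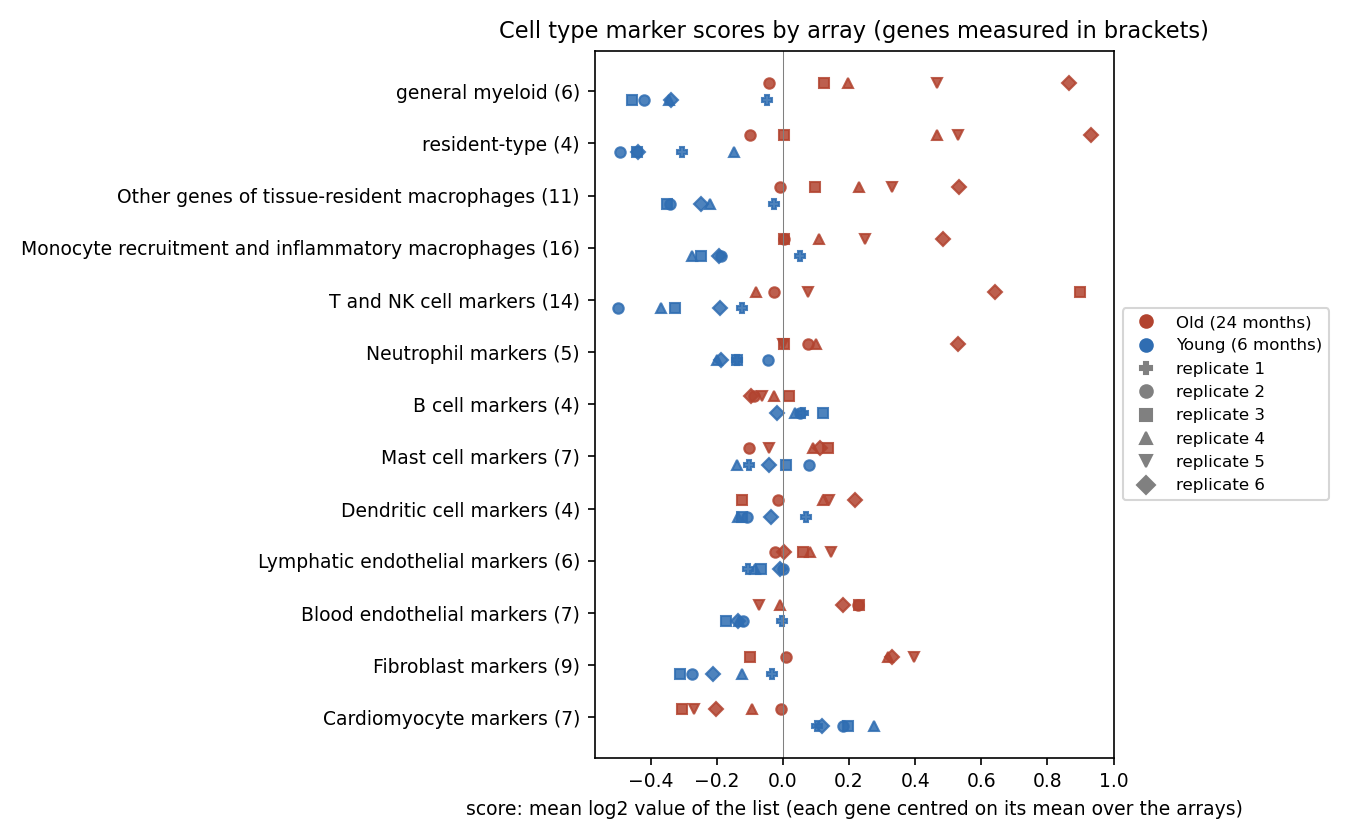
Mean log2 score of each marker list (horizontal axis, each gene centred on its mean over the 10 arrays) on each array, Old above Young within each row; numbers in brackets are genes measured. The macrophage rows place Old replicate 6 highest (0.87 and 0.93), the T and NK row places Old replicate 3 highest (0.90), and the lymphatic row spans -0.10 to 0.15.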

How the data were processed

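Expression in rat heart was measured on Affymetrix arrays, 5 Old and 5 Young, grouped and numbered by sample title. The authors' deposited table holds signed log values of 31042 probe sets, used as log2. The log base was inferred from the values. What software and normalization they used is not given in the sources used here. Per probe set, the median over the arrays was 0 (tolerance 1e-06), array medians lay between -0.0097 and 0.0093, and the highest correlation between 2 arrays was 0.570. For arrays, their number limits the precision.

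Names came from the platform annotation, with symbols updated by gene identifier through RefSeq (GRCr8, names and promoter sequences). Of them, 20826 had 1 gene, 436 several (not named) and 9780 none listed. Each of 14217 genes took the mean of its probe sets. Old and Young were compared with limma 3.58.1 in R 4.3.3 (lmFit, eBayes, prior degrees of freedom 4.36 for genes, no covariate), with Benjamini-Hochberg adjustment over all genes, and again over all probe sets. Scores and plots were made in Python 3.11.15 (pandas 2.3.3, numpy 2.4.6, matplotlib 3.10.9).

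The members, the gene lists and the tests were chosen with earlier results of these data known. Named genes were all members, up to 4 called genes of each list by p (2 where none was called), and the 3 nearest to each score. Other genes were named after their values were seen. Alternatives were quantile normalization, median centring, array weights, robust shrinkage, a replicate block, a filter on dim probe sets, other gene summaries and leaving out arrays.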

Additional observations from a re-analysis of the deposited data

Results flagged for a closer look

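Of 172 groups of 5 arrays examined (marker genes, probe sets, scores and named genes), 12 had 1 array farther from the rest than Dixon's critical value of 0.71 of the group's range. Chance alone gives about 1 in 20 such groups, and many of these groups share arrays and genes. Young replicate 1 stood highest of its group in the general myeloid score (-0.05, next -0.34), the monocyte and inflammatory score (0.05, next -0.19), Lgals3 (-0.03, next -0.31), Laptm5 (-0.01, next -0.36) and Pf4 (-0.23, next -0.63). Old replicate 6 stood highest in the neutrophil score (0.53, next 0.10), S100a9 (2.13, next 0.54), Ptprc (0.74, next 0.17) and Itgax (1.14, next 0.29). Old replicate 5 stood highest in Pf4 (0.52, next 0.28), Young replicate 4 in Maf (0.10, next -0.10) and Young replicate 2 in Lbp (-0.00143, next -0.29). No single marker gene of the 10 had such an array.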

How the results depend on the processing

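The main counts were 1686 genes and 2492 probe sets called. The replicate block gave 1069 genes and 1640 probe sets. Leaving out both Old replicates 3 and 6 gave 1012 and 1526. Leaving out 1 array gave 988 to 1994 genes and 1481 to 2943 probe sets. By gene, the counts were lowest without Young replicate 3 (988), Old replicate 5 (1003), Young replicate 2 (1047) and Old replicate 6 (1089), and by probe set without Old replicate 5 (1481), Young replicate 3 (1492), Young replicate 2 (1553) and Old replicate 6 (1618). Other settings gave counts within 1.5 times of the main ones. For the 10 marker genes, 191 alternative values were computed: 0 changed direction, 13 lost a call, 12 gained one and 166 kept their side of the threshold. Of 46 called genes named beside them, 21 were called whichever 1 array was left out and 25 were lost without at least 1. The resident-type minus general score gave 0.0129 to 0.1475 over the alternatives for which it was computed, within 1 SD of 0.0874 in each. It was not computed with array weights, robust shrinkage or the replicate block. Titles share replicate numbers 2, 3, 4 and 6 between the ages, and the main fit did not take the numbers as pairs. The deviations of same-numbered arrays correlated at 0.00595 to 0.137. No such values were computed between arrays of different numbers, so these cannot decide whether the numbers mark pairs. In the block fit, Young replicate 1 and Old replicate 5, whose numbers are not shared, carry no weight in the age difference. That difference then rests on numbers 2, 3, 4 and 6. An effect of pairing on the calls cannot be told apart from the loss of those 2 arrays. With the block, the 6 marker genes called without it were called, with adjusted p from 0.00666 to 0.0381, while Cd300c2, Fcgr3a, Fcrl2, Inpp5d, Lbp, Lrp1, Maf, Slc40a1 and Tek were lost (0.0507 to 0.103) and Ccl2 passed (0.00380). Signal over background could not be assessed from centred values.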
